A study of Mus musculus with 12 samples.

Results

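The nuclear-encoded subunits of the mitochondrial respiratory chain, complexes I to V, were followed across sorted bone marrow progenitors of mice with a KDM6B transgene and deletion of Tet2 together, with either lesion alone or with neither. Members were chosen by gene symbol alone: every row of the deposited table whose symbol starts with Nduf followed by a, b, c, s or v, with Uqcr, with Cox4 to Cox8 or with Atp5, and Sdha to Sdhd, without assembly factors (Ndufaf, Sdhaf) and pseudogenes. This gave 80 of the 15366 listed genes, with 36 in complex I, 4 in complex II, 8 in complex III, 15 in complex IV and 17 in complex V. Cyc1, a core subunit of complex III, lies outside the symbol pattern and is described with the electron carriers.

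The respiratory chain sits in the inner mitochondrial membrane. Complexes I and II take electrons from NADH and succinate, complex III passes them to cytochrome c, and complex IV hands them to oxygen. Complexes I, III and IV pump protons, and complex V, the ATP synthase, uses the returning protons to make ATP. Most subunits are encoded in the nucleus, a small set in mitochondrial DNA, and the mitochondrially encoded subunits were not analysed here. Blood stem cells at rest are known for relying on glycolysis more than their cycling progeny do, and NRF1, GABP and YY1 are known transcription factors of nuclear respiratory genes.

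RNA came from LSK cells (lineage-negative, Sca-1-positive, Kit-positive), the marrow cells that include the blood stem cells, sorted by flow cytometry from untreated C57BL/6 mice. There were 4 groups of 3 libraries. The double lesion carried a human KDM6B transgene driven by Vav, a promoter active throughout blood cells, with Vav Cre and both Tet2 alleles floxed. KDM6B OE carried the transgene, and its label names no Cre. Tet2 KO carried Vav Cre and both Tet2 alleles floxed, and Vav Cre, the control, carried Vav Cre alone. KDM6B is a demethylase of lysine 27 on histone H3, and TET2 oxidises methylated cytosine. The double lesion and Tet2 KO thus share Vav Cre with the control, and in KDM6B OE the transgene and any absence of Cre cannot be told apart. Whether each library came from its own animal is not stated, and p-values here reflect variation among libraries that may be technical.

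The starts of the members' genes were read from RefSeq on GRCm38.p6, as windows of 300 bases (250 before and 50 after the start), since genes that move together invite the question of what their promoters hold. The table gave 73 windows for 67 of the 80 members. The core bound by NRF1, searched as GCGCACGCGC or GCGCATGCGC on both strands, was present in 10 of 73 windows (13.7%), against 2.27% of all 32851 windows in the table. The YY1 letters AAGATGGC were in 12 windows (16.4%, against 2.75%), the GABP letters CCGGAAGT in 5 (6.85%, against 3.89%) and the E-box CACGTG in 9 (12.3%, against 7.15%). A window can hold several of these motifs. A match is a description of letters and not a bound site.

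The NRF1 core lay before the start in 7 members, shown here because these stretches carry the letters counted above, in genes of complexes I, II, IV and V. Each stretch is read 5′ to 3′ on the gene's strand, with the core in capitals; 20 bases are shown where the surrounding sequence touches an annotated exon of the same gene.
Ndufa11 (chr17:56717682-56717731, plus strand): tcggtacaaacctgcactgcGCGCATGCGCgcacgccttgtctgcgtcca
Ndufb4 (chr16:37654530-37654579, minus strand): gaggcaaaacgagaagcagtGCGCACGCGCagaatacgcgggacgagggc
Sdhd (chr9:50603899-50603948, minus strand): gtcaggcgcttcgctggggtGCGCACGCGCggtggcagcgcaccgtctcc
Cox6a1 (chr5:115349091-115349140, minus strand): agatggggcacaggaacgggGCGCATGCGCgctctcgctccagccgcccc
Atp5c1 (chr2:10080435-10080454, minus strand): ctcccGCGCACGCGCactga
Atp5g2 (chr15:102671075-102671094, minus strand): cggccGCGCATGCGCagagc
Atp5k (chr5:108434435-108434454, minus strand): ctgcgGCGCATGCGCctttc
Ndufa6, Uqcrc1 and Atp5o held the core after the start.

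Each library held 21935022 to 26263370 reads on listed genes, and the members took 1.32% (double lesion 1) to 2.14% (Vav Cre 2) of them. Values are CPM, read counts that the authors scaled for library size, where 1 read was worth 0.0373 to 0.0463 CPM. Tet2 stood at 37.2, 35.1 and 26.5 CPM in the double lesion and 31.6, 24.9 and 24.1 CPM in Tet2 KO, both without overlap with the 82.9, 66.2 and 97.1 CPM of Vav Cre. Mouse Kdm6b was at 9.92, 12.3 and 9.30 CPM in the double lesion and 12.5, 7.79 and 10.4 CPM in KDM6B OE, against 6.37, 6.54 and 7.91 CPM in Vav Cre; the human transgene itself was not measured. The defining markers of LSK cells were present in every library, with Kit at 907, 558 and 603 CPM in the double lesion and 506, 356 and 499.8 CPM in Vav Cre, and Ly6a (Sca-1) at 102, 99.1 and 122 CPM in the double lesion and 113, 107 and 78.2 CPM in Vav Cre. Transcripts of the Y chromosome showed male tissue in double lesion 1 and 3, Tet2 KO 1 and Vav Cre 1, and sex is not in the labels.

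Double lesion 1 and Vav Cre 2 stood apart in these genes. Double lesion 1 had the lowest value of the 12 libraries for 70 of the 80 members, and Vav Cre 2 had the highest for 72. The median deviation of the members from their own mean over the 12 libraries, on the log2(CPM + 1) scale, was -0.41 in double lesion 1 and 0.65 in Vav Cre 2. It lay between -0.19 and 0.26 in the other 10 libraries. Vav Cre 2 also had the highest level of the erythroid markers Car1, at 1423 CPM against 183 to 511 CPM in the other 11 libraries, and Klf1, at 142 CPM against 19.4 to 74.0 CPM. The haemoglobin genes were not analysed here. The stem and progenitor marker Kit was highest in double lesion 1, at 907 CPM, and lowest in Vav Cre 2, at 356 CPM. The part of the cell mixture in the results was not tested, and in bulk libraries fewer cells of a type and less RNA per cell cannot be told apart.

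**Figure D1:**
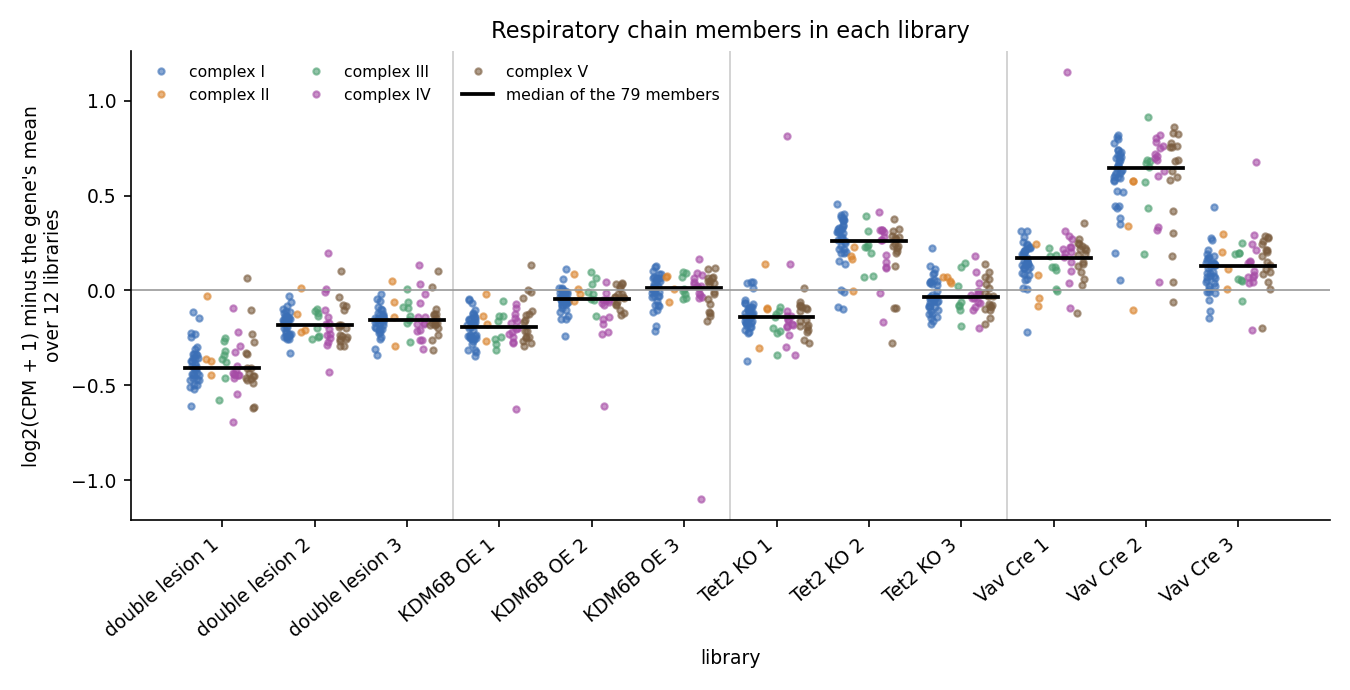
Each point is 1 of the 79 tested members in 1 library (x axis), as log2(CPM + 1) minus that gene's mean over the 12 libraries (y axis), coloured by complex; black bars are the medians. The medians of all 5 complexes are lowest in double lesion 1 (median -0.41) and highest in Vav Cre 2 (median 0.65).

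The double lesion was set against Vav Cre to read both lesions together. Of the 79 members tested, 53 fell and 0 rose at limma's adjusted p under 0.05, 67.1% of the members. Over all 13046 genes tested, 7.58% were called lower and 7.34% higher. The median log2 difference of the members was -0.56, against 0.05 over all genes, and 72 members had an unadjusted p under 0.05, against 32.3% of all genes (14.9% with a lower value). In all, 78 of 79 members had a negative value, against 45.6% of all genes. The 3 double lesion libraries lay below all 3 Vav Cre libraries for 70 of 79 members, which held for 16.4% of all genes. Summed over the members, the level was 12481, 14205 and 14271 CPM in the double lesion and 17368, 23016 and 17548 CPM in Vav Cre, so that the double lesion stood at 70.7% of Vav Cre. The scaled values of all listed genes summed to 947374 CPM in double lesion 1, the lowest total, and 1076728 CPM in Vav Cre 2, the highest. As a share of reads the members took 1.32%, 1.43% and 1.46% in the double lesion and 1.74%, 2.14% and 1.73% in Vav Cre. By complex, the double lesion stood at 68.3% of Vav Cre for complex I, 80.3% for complex II, 73.3% for complex III, 63.2% for complex IV and 73.3% for complex V. The sums of KDM6B OE, at 14180, 15673 and 16154 CPM, and of Tet2 KO, at 14639, 17751 and 16012 CPM, lay at 79.4% and 83.5% of Vav Cre.

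These calls rested on a few libraries. Without double lesion 1 the count of members called was 1, with 142 of 12984 genes called lower. Without Vav Cre 2 it was 11, with 304 of 13009 genes lower. Without double lesion 2 it was 21, with 449 of 12994 genes lower, and without double lesion 3 it was 23, with 479 of 13006. With both double lesion 1 and Vav Cre 2 left out, a choice made after the data were seen, limma called 0 of 79 members and 56 of 12944 genes were called lower, while 77 of 79 members still had a negative value with a median of -0.31. In a fit of the double lesion and Vav Cre libraries alone 6 members and 138 of 13046 genes were called lower, and with sex as a covariate 35 members and 691 genes. The median of the members was negative in each of these fits. Atp5g2 was the only member called in each of the 12 fits that left out 1 library.

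**Figure D2:**
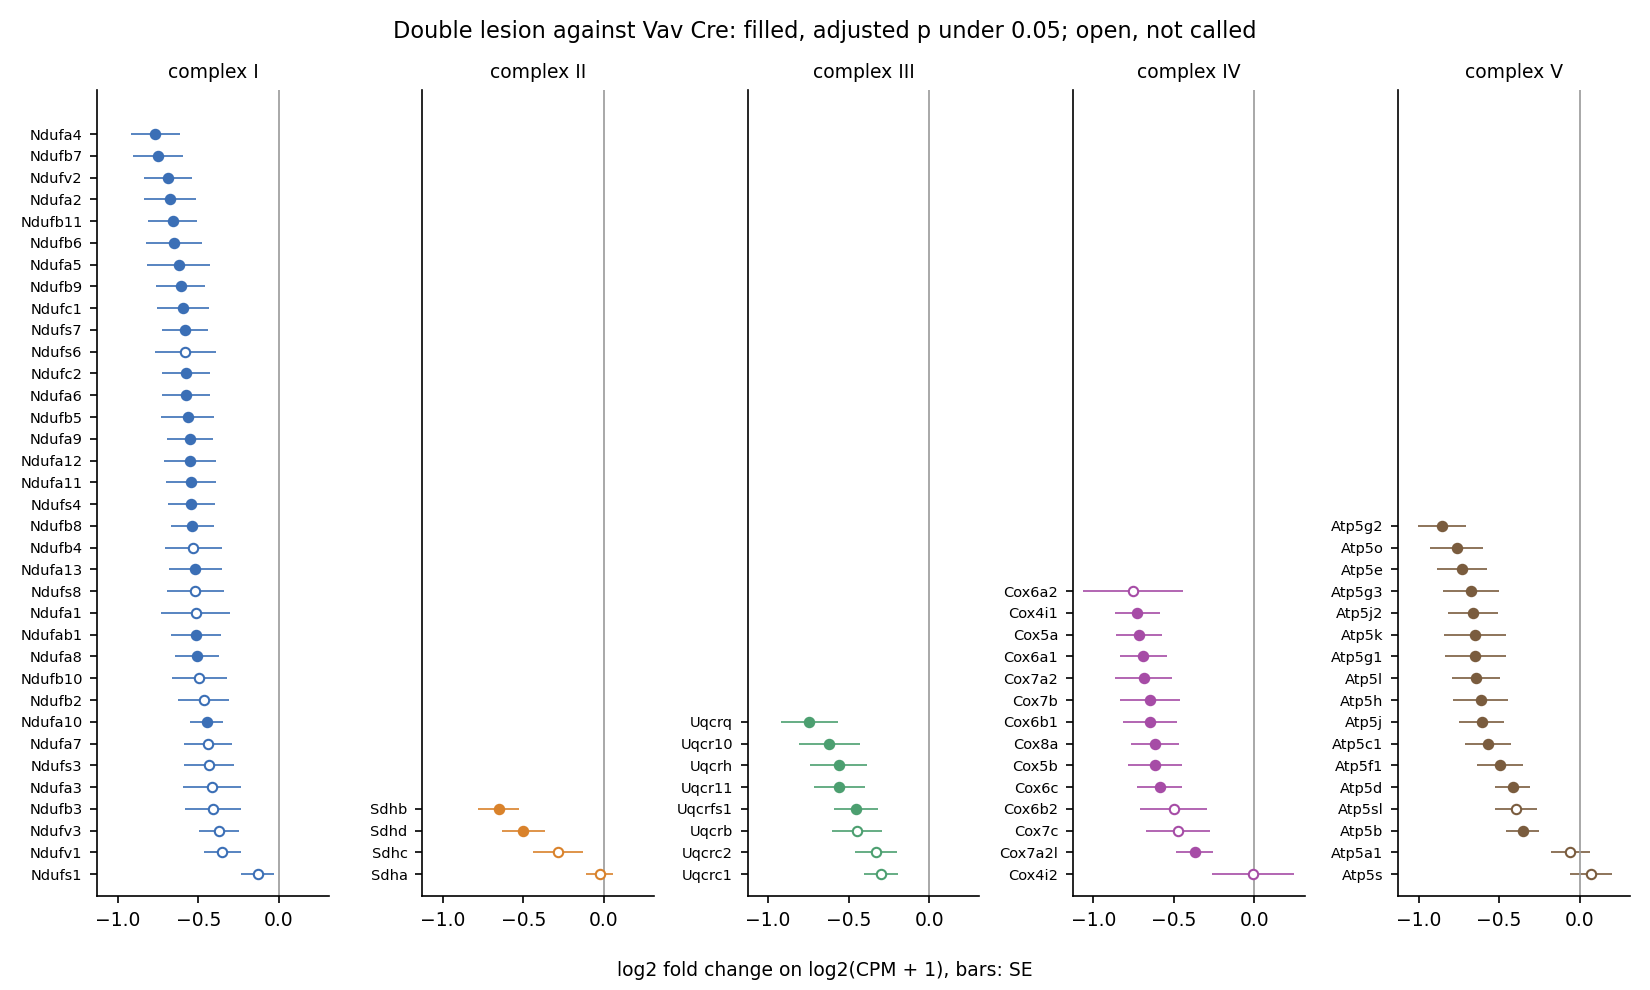
Log2 fold change of 78 of the tested members in the double lesion against Vav Cre (x axis, limma on log2(CPM + 1), bars are SE), with 1 panel per complex and genes ordered by value (y axis). Filled points passed the adjusted p of 0.05, and all values but that of Atp5s lie below 0, with Sdha, Atp5a1, Ndufs1 and Cox4i2 nearest to it.

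Complex I, the NADH dehydrogenase, had 36 members, of which 22 fell and all 36 had negative values (median -0.54, from -0.77 to -0.13). Ndufb7 (GRCm38 chromosome 8, 83566671 to 83571626), an accessory subunit, was at 104, 126 and 116 CPM in the double lesion and 167, 242 and 178 CPM in Vav Cre. The double lesion libraries all lay below the Vav Cre libraries, and Ndufb7 fell by 0.75 ± 0.15 on the log2 scale (adjusted p = 0.0108). In the single lesions Ndufb7 was at 122, 136 and 149 CPM in KDM6B OE and 138, 186 and 144 CPM in Tet2 KO. Ndufv2 (chromosome 17, 66078638 to 66101559), a core subunit that carries an iron-sulphur cluster in the NADH-oxidising arm, was at 117, 136 and 144 CPM in the double lesion and 202, 266 and 179 CPM in Vav Cre. It fell by 0.69 ± 0.15 (adjusted p = 0.0148) with no overlap of the groups. Ndufc1 (chromosome 3, 51404677 to 51408988), the member of complex I with the lowest level per length at 45.1 CPM per kb, was at 41.3, 49.4 and 49.6 CPM in the double lesion and 60.7, 92.7 and 63.2 CPM in Vav Cre and fell by 0.59 ± 0.16 (adjusted p = 0.0302). With the trend on transcript length and GC content removed in each library, Ndufc1 was at -0.26 and not called (adjusted p = 0.151).

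Core and accessory subunits of complex I both had lower values. The 7 core subunits, those conserved in the bacterial enzyme, had a median of -0.43 with 2 called. The 28 accessory subunits had a median of -0.54 with 19 called. The classes also differ in transcript length, which went with the fold change over all genes. Core transcripts include Ndufs1 at 2590 nt, Ndufv2 at 1697 nt and Ndufv1 at 1661 nt, and most accessory transcripts are under 1500 nt. The difference between the classes was not tested. Ndufs1 (chromosome 1, 63143596 to 63176833), the largest core subunit, had a log2 difference of -0.13 ± 0.10 (adjusted p = 0.402), at 129, 140.4 and 139 CPM in the double lesion and 152, 164 and 133 CPM in Vav Cre. It was singled out after its values were seen, and its exons overlap Eef1b2 and Ino80dos on the opposite strand. Ndufa4 (chromosome 6, 11900292 to 11907497), counted here by its symbol but since assigned to complex IV, was the most abundant of the Nduf genes at 529 CPM per kb. It was at 206, 249 and 269.7 CPM in the double lesion, 293, 311 and 292 CPM in KDM6B OE, 299, 406 and 303 CPM in Tet2 KO and 354, 510.0 and 379 CPM in Vav Cre. Ndufa4 fell by 0.77 ± 0.15 in the double lesion against Vav Cre (adjusted p = 0.01), and its value with the trend on length and GC content removed was -0.30 (adjusted p = 0.0616).

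Complex II, succinate dehydrogenase, links the citric acid cycle to the chain and is wholly nuclear-encoded. Of its 4 subunits 2 were called lower and 2 were not, and all 4 had negative values. Sdhb (chromosome 4, 140961203 to 140979193), the iron-sulphur subunit, was at 205, 242 and 229 CPM in the double lesion and 331, 418 and 322 CPM in Vav Cre. The groups did not overlap, and Sdhb fell by 0.65 ± 0.13 (adjusted p = 0.00863). Sdhd (chromosome 9, 50596357 to 50603812), a membrane anchor, was at 262, 291 and 308 CPM in the double lesion and 359, 506 and 367 CPM in Vav Cre, also without overlap, and fell by 0.50 ± 0.13 (adjusted p = 0.027). After that length and GC correction Sdhd was at -0.24 and not called (adjusted p = 0.0883), and Sdhb was at -0.53 (adjusted p = 0.00424). Sdhc (chromosome 1, 171127165 to 171150603), the other anchor, was at 99.1, 129 and 132 CPM in the double lesion and 121, 162 and 157 CPM in Vav Cre, where the groups overlapped (-0.29 ± 0.15, adjusted p = 0.216). With the same correction Sdhc was at -0.45 (adjusted p = 0.0811).

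Sdha (chromosome 13, 74322254 to 74350280), the flavoprotein that oxidises succinate, was at 571, 535 and 559 CPM in the double lesion, 576, 618 and 612 CPM in KDM6B OE, 643, 582 and 613 CPM in Tet2 KO and 567, 543 and 585 CPM in Vav Cre. The double lesion and Vav Cre libraries were interleaved, with a log2 difference of -0.03 ± 0.08 (adjusted p = 0.867). Per length of transcript Sdha, at 201 CPM per kb over all libraries, stood near Sdhb at 250 CPM per kb and Sdhd at 279 CPM per kb. Within each library the ratio of Sdhb to Sdha CPM was 0.359, 0.452 and 0.409 in the double lesion, against 0.584, 0.770 and 0.550 in Vav Cre. The groups did not overlap, and the exact two-sided permutation p of 0.1 is the smallest that 3 against 3 libraries allow. Sdhb has a transcript of 1142 nt and Sdha of 2900 nt, so a trend on length does not cancel in this ratio. With the length and GC trend removed Sdhb was at -0.53 and Sdha at -0.17. The Sdhb to Sdha ratio was 0.437 ± 0.0297 in KDM6B OE and 0.484 ± 0.0787 in Tet2 KO (SD, n = 3 each).

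Complex III, cytochrome bc1, had 8 members, of which 5 fell and none rose (median -0.50). Uqcrq (chromosome 11, 53427922 to 53430831), a small subunit beside the cytochrome b core, was at 88.3, 96.0 and 95.2 CPM in the double lesion, 92.1, 111 and 115 CPM in KDM6B OE, 100.02, 135 and 107 CPM in Tet2 KO and 135, 217 and 131 CPM in Vav Cre. All double lesion libraries lay below all Vav Cre libraries, and Uqcrq fell by 0.74 ± 0.18 (adjusted p = 0.0187). The small subunits Uqcr11 (chromosome 10, 80402997 to 80406830) and Uqcr10 (chromosome 11, 4701973 to 4704342) fell by 0.56 ± 0.16 (adjusted p = 0.0339) and 0.62 ± 0.19 (adjusted p = 0.0426). Uqcr10, with the fewest CPM of complex III, was at 68.1, 94.6 and 97.7 CPM in the double lesion and 116, 165 and 122 CPM in Vav Cre. Uqcrfs1 (chromosome 13, 30540308 to 30545362), the Rieske iron-sulphur protein, was at 131, 151 and 151 CPM in the double lesion and 181, 248 and 172 CPM in Vav Cre and fell by 0.45 ± 0.14 (adjusted p = 0.0416). After that length and GC correction Uqcrfs1 was at -0.22 and not called (adjusted p = 0.129).

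Uqcrc1 (chromosome 9, 108936633 to 108949623), a large core protein and the most abundant member of complex III at 328 CPM per kb, was at 453, 504 and 484 CPM in the double lesion and 539, 616 and 618 CPM in Vav Cre. Its groups did not overlap, but the difference of -0.30 ± 0.10 missed the threshold (adjusted p = 0.0689). With the trend on length and GC content removed in each library it was -0.42 (adjusted p = 0.0174). The ratio of Uqcrq to Uqcrc1 CPM within a library was 0.195, 0.191 and 0.197 in the double lesion, against 0.2496, 0.352 and 0.212 in Vav Cre (exact two-sided permutation p = 0.1). Uqcrq has a transcript of 405 nt and Uqcrc1 of 1653 nt, so a trend on length does not cancel in this ratio. With the length and GC trend removed Uqcrq was at -0.66.

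Complex IV, cytochrome c oxidase, had the most negative median, -0.63, with 10 of 14 tested members called lower. Cox4i1 (chromosome 8, 120668222 to 120674207), the common isoform of the largest nuclear-encoded subunit, was at 355, 397 and 404 CPM in the double lesion, 421, 459 and 488 CPM in KDM6B OE, 425, 589 and 476 CPM in Tet2 KO and 585, 787 and 561 CPM in Vav Cre. Every double lesion library lay below every library of the other 3 groups, and Cox4i1 fell by 0.73 ± 0.14 against Vav Cre (adjusted p = 0.00911). Its exons overlap Emc8 on the opposite strand, and whether the counting used strand is not given in the sources used here. Cox5a (chromosome 9, 57521274 to 57532426), a matrix-side subunit that overlaps the antisense gene Gm26631, was at 147, 169 and 173 CPM in the double lesion and 236, 332 and 247 CPM in Vav Cre. It fell by 0.72 ± 0.14 (adjusted p = 0.00944), again with no overlap. After that length and GC correction, the Cox5a value was -0.33 (adjusted p = 0.0323).

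Several subunits of complex IV come in tissue isoforms, and here the common forms carried most of the signal. Cox6a1 (chromosome 5, 115345642 to 115348981), the form of most tissues, was at 180.5, 207 and 197 CPM in the double lesion and 298, 399 and 262 CPM in Vav Cre and fell by 0.69 ± 0.15 (adjusted p = 0.0125). Cox6a2 (chromosome 7, 128205435 to 128206387), the heart and muscle form, was at 7.53, 5.74 and 8.99 CPM in the double lesion, 4.89, 4.96 and 3.24 CPM in KDM6B OE, 15.01, 8.01 and 8.35 CPM in Tet2 KO and 19.2, 8.37 and 13.5 CPM in Vav Cre. Its lowest libraries were those of KDM6B OE, which lay below all others, and the value there was -1.40 ± 0.31 against Vav Cre (adjusted p = 0.0579). The Cox6a2 difference was -0.75 ± 0.31 in the double lesion (adjusted p = 0.111), and its exons overlap the integrin gene Itgad on the opposite strand. Cox6a2 had the only interaction value among the members at an unadjusted p under 0.05 (0.99 ± 0.44, limma's adjusted p = 0.999).

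Cox6b1, Cox7a2 and Cox8a, the widespread forms of 3 further subunits, fell by 0.65 ± 0.17 (adjusted p = 0.0255), 0.69 ± 0.18 (adjusted p = 0.0233) and 0.62 ± 0.15 (adjusted p = 0.0198). Cox7a2l, a related protein linked to supercomplexes of complexes III and IV, fell by 0.37 ± 0.11 (adjusted p = 0.0451), at 134, 153 and 146 CPM in the double lesion and 183, 205 and 173 CPM in Vav Cre. After that length and GC correction Cox7a2l was at -0.08 and not called (adjusted p = 0.567), Cox6b1 was at -0.29 (adjusted p = 0.0387) and Cox7a2 at -0.35 (adjusted p = 0.0282). The testis form Cox6b2 made up 12.1% ± 1.98 of the Cox6b CPM in the double lesion and 11.1% ± 0.500 in Vav Cre (SD, n = 3 each; exact permutation p = 0.4), with a difference of -0.50 ± 0.21 in its own level (adjusted p = 0.112). Cox4i2, the lung and hypoxia form, was near the filter at 1.082, 1.77 and 1.48 CPM in the double lesion and 1.27, 2.06 and 1.098 CPM in Vav Cre (-0.01 ± 0.26, adjusted p = 0.986), and the sign of that value changed with the scaling. Cox7a1, the muscle form, was the only member that failed the filter of 1 CPM in 3 libraries, with at most 0.943 CPM and none in Vav Cre 3, where 0 reads allow up to 3 by counting error alone, worth 0.132 CPM.

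Complex V, the ATP synthase, had 17 members, of which 14 fell and none rose (median -0.61). Atp5s and Atp5sl are associated proteins counted here by their symbols; Atp5sl bears the name Dmac2 in GENCODE and is known as an assembly factor of complex I. Atp5g2 (chromosome 15, 102662864 to 102672352), 1 of 3 genes for the c subunit of the proton-driven rotor, had the smallest p of all members. It was at 109, 141 and 135 CPM in the double lesion, 154, 154 and 177 CPM in KDM6B OE, 151, 198 and 159.5 CPM in Tet2 KO and 216, 289 and 199.6 CPM in Vav Cre. The double lesion libraries were the 3 lowest of the 12, and Atp5g2 fell by 0.85 ± 0.15 against Vav Cre (adjusted p = 0.00604). The other c-subunit genes, Atp5g1 (chromosome 11, 96068852 to 96075670) and Atp5g3 (chromosome 2, 73908447 to 73911326), fell by 0.65 ± 0.19 (adjusted p = 0.0382) and 0.67 ± 0.18 (adjusted p = 0.0256). After that length and GC correction Atp5g3 was at -0.31 (adjusted p = 0.0386). The 3 genes encode the same mature protein with different import sequences, and the groups overlapped in their mix, with Atp5g2 at 22.3% ± 0.752 of their summed CPM in the double lesion and 24.8% ± 1.82 in Vav Cre (SD, n = 3 each; exact permutation p = 0.2).

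The membrane part and stalk of the synthase had a more negative median than its catalytic head. All 10 Fo and stalk members fell (median -0.65), and 4 of the 5 F1 members fell (median -0.42). The parts also differ in transcript length, which went with the fold change over all genes. In F1, Atp5b and Atp5a1 have 1916 and 2471 nt, and Atp5e has 421 nt. Fo and stalk transcripts are under 1000 nt, apart from Atp5f1 at 1604 nt. The difference between the parts was not tested. Atp5o (chromosome 16, 91925214 to 91931687), the stalk subunit known for conferring oligomycin sensitivity, was at 165, 214 and 215 CPM in the double lesion and 306, 427 and 286 CPM in Vav Cre. It fell by 0.76 ± 0.16 (adjusted p = 0.0133). Its exons overlap D430001F17Rik and Gm15976 on the opposite strand, and a further entry named Atp5o on the same strand. Atp5e (chromosome 2, 174461072 to 174464105), the small epsilon subunit of F1, was at 84.2, 92.7 and 101 CPM in the double lesion and 135, 193 and 139 CPM in Vav Cre and fell by 0.73 ± 0.16 (adjusted p = 0.0134). Neither gene's groups overlapped.

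Atp5b (chromosome 10, 128083273 to 128090391), the catalytic beta subunit, was the most abundant member of the whole chain, at 975 CPM per kb of transcript. It was at 1585, 1728 and 1678 CPM in the double lesion and 1939, 2295 and 2154 CPM in Vav Cre, with no overlap, and fell by 0.35 ± 0.10 (adjusted p = 0.0376). Atp5a1, the alpha subunit that alternates with beta in the F1 ring, had a difference of -0.06 ± 0.12 (adjusted p = 0.782), at 900.4, 1037 and 980.1 CPM in the double lesion and 891, 998 and 1159.7 CPM in Vav Cre. It was singled out after its values were seen, and its exons overlap Haus1 on the opposite strand. Atp5s, coupling factor B, with the fewest CPM of complex V, was at 42.7, 39.7 and 43.8 CPM in the double lesion and 46.6, 38.9 and 35.3 CPM in Vav Cre and had the only positive value among the tested members (0.07 ± 0.13, adjusted p = 0.749).

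**Figure D3:**
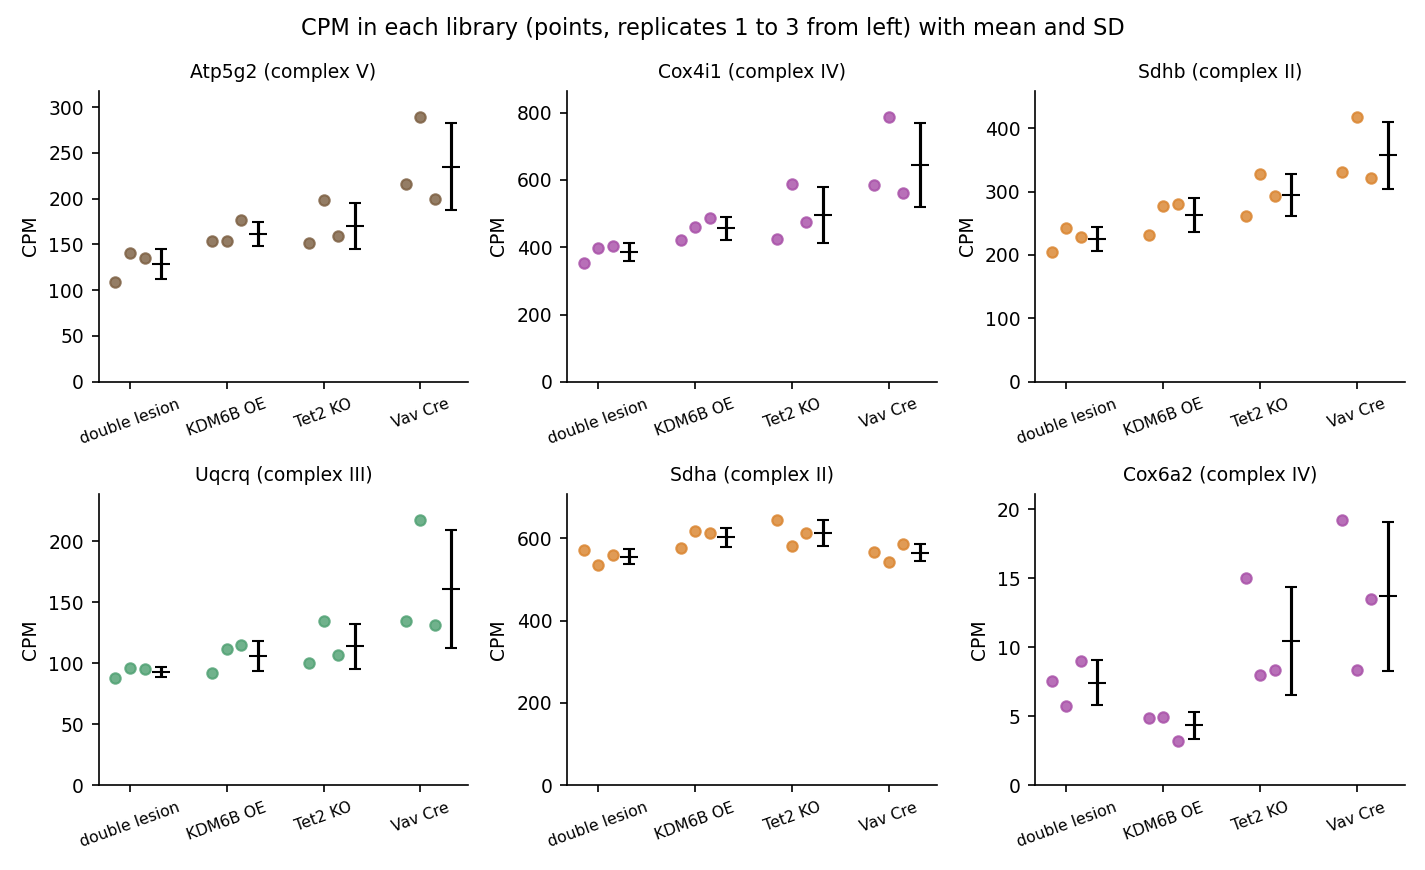
CPM (y axis, from 0) of 6 members in each library of the 4 groups (x axis), with the group mean and SD beside the points. Atp5g2, Cox4i1, Sdhb and Uqcrq are lowest in the double lesion and highest in Vav Cre 2, Sdha lies between 535 and 643 CPM throughout, and Cox6a2 is lowest in KDM6B OE.

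The members varied together from library to library. The median Pearson correlation between 2 members on the log2(CPM + 1) scale over the 12 libraries was 0.92, and 64 members had a correlation above 0.9 with the median of all members. These values describe libraries that share 4 groups, and they carry no test. The genes least like the rest were Sdha (-0.22), Atp5s (-0.11), Atp5a1 (-0.01), Cox6a2 (0.22) and Cox4i2 (0.33). The median SD over 3 libraries was 0.14 log2 units for members and 0.15 for all genes in the double lesion, and 0.29 and 0.28 in Vav Cre.

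Members with short transcripts had the more negative values. In the double lesion against Vav Cre the median was -0.62 for 33 members with a transcript under 700 nt, -0.61 for 17 from 700 to under 1000 nt, -0.53 for 14 from 1000 to under 1500 nt and -0.35 for 15 of 1500 nt or more. All tested genes showed the same order, with medians of -0.39, -0.35, -0.20 and 0.11 in those classes. In each class the members' median was the lower of the 2. Spearman's rho between transcript length and log2 fold change was 0.50 over 79 members and 0.31 over 12955 genes with a length, as a description across genes, which are not independent. With the trend on length and GC content removed in each library, the median of the members was -0.33 and that of all genes -0.03, and 39 members were called lower, of which 35 were also called without the correction; 1177 of 12955 genes were called lower in that fit. Sdha at 2900 nt and Sdhc at 3171 nt are the longest transcripts of complex II, and with the correction Sdha had a value of -0.17 (adjusted p = 0.127) and Sdhc of -0.45 (adjusted p = 0.0811).

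**Figure D4:**
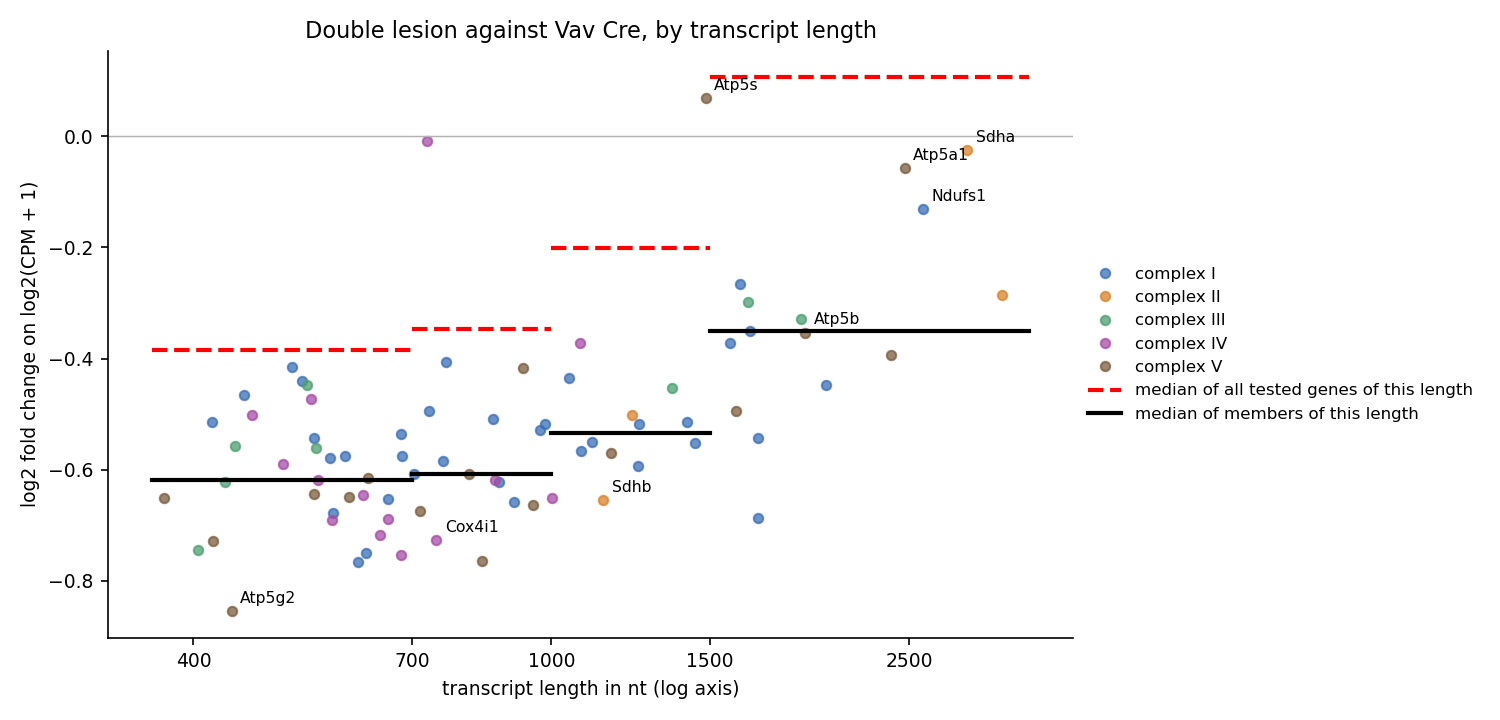
Log2 fold change of each member in the double lesion against Vav Cre (y axis) by transcript length in nt (x axis, log scale), coloured by complex. Black bars are the members' medians in 4 length classes, -0.62 to -0.35, and dashed red bars are the medians of all tested genes of those lengths, -0.39 to 0.11.

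In KDM6B OE, the transgene without Tet2 deletion, no member was called against Vav Cre by limma (0 of 79, where 0.598% of all genes were called, 0.0767% lower and 0.521% higher), while 54 members had an unadjusted p under 0.05 with a lower value, against 8.98% of all genes. DESeq2 on the recovered reads called 15 members and 363 of 13046 genes lower, and edgeR called 0 members and 9 genes. With array weights limma called 7 members and 233 genes lower. The median of the members was -0.39, against 0.04 over all genes, and 78 of 79 values were negative (45% of all genes). The KDM6B OE libraries lay below all Vav Cre libraries for 55 members, which held for 10.9% of all genes. The medians by complex were -0.38 for complex I, -0.28 for complex II, -0.39 for complex III, -0.47 for complex IV and -0.40 for complex V. Atp5e, at 95.7, 105 and 108 CPM in KDM6B OE, had a difference of -0.58 ± 0.16 (adjusted p = 0.105), and Uqcrq one of -0.56 ± 0.18 (adjusted p = 0.125).

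The comparisons of KDM6B OE, of Tet2 KO and of the double lesion with Vav Cre share the Vav Cre libraries. In complex I of KDM6B OE, Ndufb7 had a difference of -0.51 ± 0.15 (adjusted p = 0.116), and Ndufa9, an accessory subunit that overlaps 1700018A23Rik on the opposite strand, one of -0.49 ± 0.15 (adjusted p = 0.116) at 219, 249 and 258 CPM, against 326, 431 and 278 CPM in Vav Cre. In complex IV, Cox5a had a difference of -0.50 ± 0.14 (adjusted p = 0.111), and in complex V, Atp5g2 one of -0.52 ± 0.15 (adjusted p = 0.113). Without Vav Cre 3 the count of members called was 30, with 614 of 12990 genes called lower. Without Vav Cre 2 it was 1, with 5 of 13009 genes lower and a members' median of -0.22.

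With Tet2 deletion alone, limma called 0 of 79 members against Vav Cre, where 0.0307% of all genes were called (0.00767% lower and 0.023% higher), and 24 members had an unadjusted p under 0.05 with a lower value, against 5.44% of all genes; edgeR and DESeq2 called 0. The members' median was -0.29, against 0.03 over all genes, and 76 of 79 values were negative (45.8% of all genes). The groups overlapped for most members: the Tet2 KO libraries lay below all Vav Cre libraries for 6 members, 7.59% of them, against 5.7% of all genes, and above them for 0, against 6.87%. Tet2 KO 2 was the highest of its group for Ndufa4, Cox4i1, Uqcrq, Sdhb and Atp5g2, and lay above Vav Cre 3 for the first 4 of them. Cox5a had a difference of -0.44 ± 0.14 (adjusted p = 0.256) and Atp5g2 one of -0.46 ± 0.15 (adjusted p = 0.256). Sdha had a positive value of 0.12 ± 0.08 (adjusted p = 0.558). Without Vav Cre 2 the median was -0.13.

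**Figure D5:**
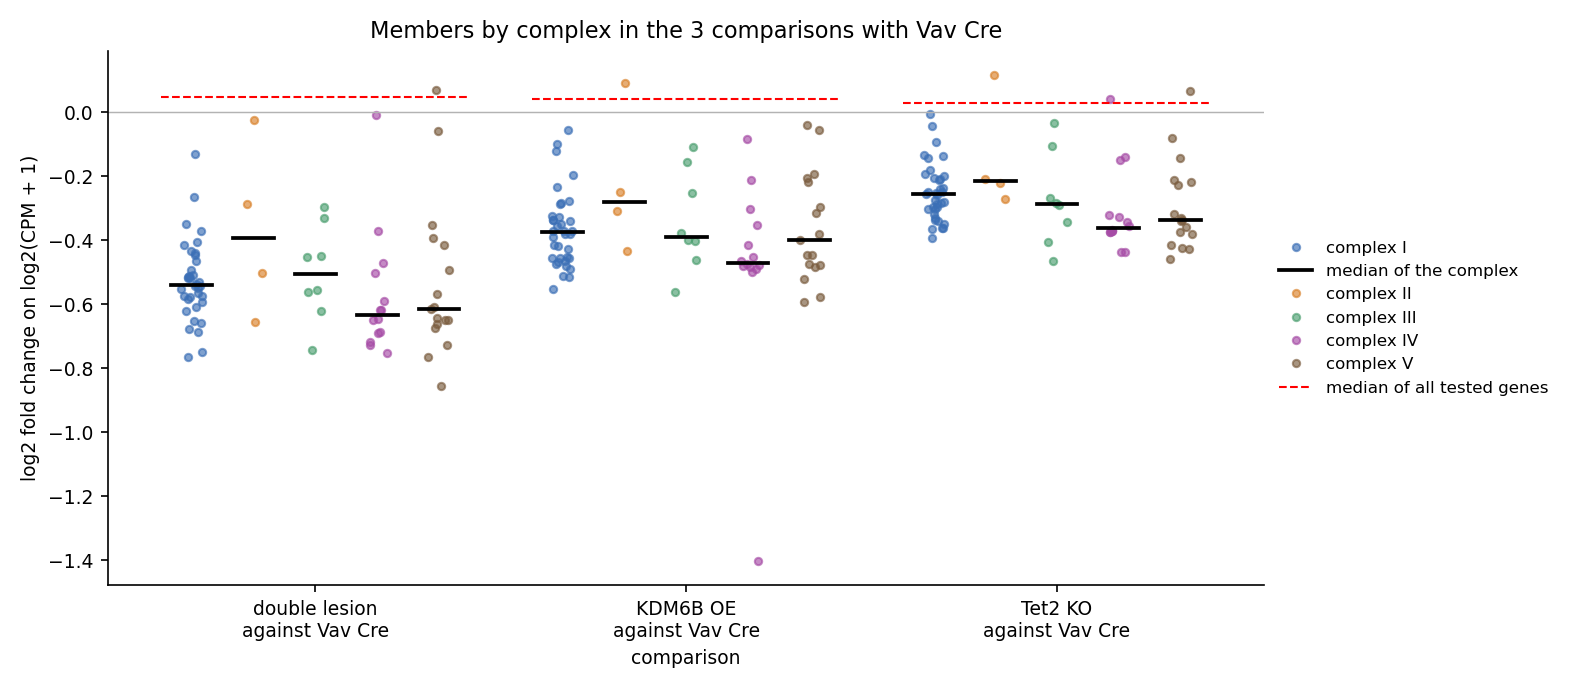
Log2 fold change of each tested member (y axis) by complex in 3 comparisons that share the Vav Cre libraries (x axis). Black bars are the medians by complex, from -0.63 to -0.39 in the double lesion, -0.47 to -0.28 in KDM6B OE and -0.36 to -0.22 in Tet2 KO, and red dashed lines are the medians of all 13046 tested genes, 0.03 to 0.05.

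The double lesion was also set against each single lesion, in comparisons that share the double lesion libraries. Against KDM6B OE, the Tet2 deletion and any difference in Cre cannot be told apart. By their Y transcripts, double lesion 1 and 3 were male and no KDM6B OE library was. Against KDM6B OE, limma called 0 of 79 members, as edgeR and DESeq2 did, and 0% of all genes were called; 2 members had an unadjusted p under 0.05 (5.91% of all genes, 3.14% with a lower value), Ndufa8 (-0.31 ± 0.14, adjusted p = 0.817) and Atp5g2 (-0.33 ± 0.15, adjusted p = 0.838). The median was -0.17, against -0.01 over all genes, with 75 negative values (52.2% of all genes). It was -0.10 without double lesion 1. The double lesion libraries lay below all KDM6B OE libraries for 20 members, 25.3% against 9.72% of all genes. Cox6a2 was the 1 member above all KDM6B OE libraries, at 7.53, 5.74 and 8.99 CPM in the double lesion and 4.89, 4.96 and 3.24 CPM in KDM6B OE (0.65 ± 0.31, adjusted p = 0.859).

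Against Tet2 KO, limma, edgeR and DESeq2 each called 0 of 79 members, with 0.215% of all genes called by limma (0.023% lower and 0.192% higher), and 18 members had an unadjusted p under 0.05 with a lower value, against 5.09% of all genes. The median was -0.27, with 77 negative values (50.6% of all genes), and the double lesion libraries lay below all Tet2 KO libraries for 35 members, 44.3% against 10.9% of all genes. Ndufa4 had a difference of -0.47 ± 0.15 (adjusted p = 0.334) and Sdhb one of -0.38 ± 0.13 (adjusted p = 0.34). Without Tet2 KO 2 the median was -0.16.

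The interaction term compares the change in the double lesion with the sum of the changes in KDM6B OE and Tet2 KO. Any absence of Cre in KDM6B OE enters this term as well and cannot be told apart. limma, edgeR and DESeq2 each called 0 of 79 members, and limma called 0% of all genes; 1 member, Cox6a2, had an unadjusted p under 0.05, against 4.43% of all genes. Values were negative for 13 members (55% of all genes). The median was 0.12 for the members and -0.03 for all genes, a positive value meaning a smaller decrease than the sum of the single differences. Uqcrq had an interaction of 0.29 ± 0.25, Ndufs4 of 0.26 ± 0.21 and Atp5k of 0.37 ± 0.27 (adjusted p = 0.999 each). The sign of the median rested on Vav Cre 2, without which it was -0.05.

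The NRF1 core described above lay in 8 of 48 matched members called lower in the double lesion and in 2 of 18 not called. Of the 7 genes with the core before the start, Ndufb4 was the only one not called (-0.53 ± 0.18, adjusted p = 0.0586). Uqcrc1, with the core after the start, was not called either (adjusted p = 0.0689). Most matched members were called whether or not they held the core, with 48 called and 18 not called in all. A link between the core and the lower values was not tested. Atp5k, a small Fo subunit that helps the synthase form dimers, was at 31.7, 33.8 and 36.8 CPM in the double lesion, 32.6, 38.1 and 35.9 CPM in KDM6B OE, 34.4, 52.5 and 35.4 CPM in Tet2 KO and 44.4, 72.2 and 49.0 CPM in Vav Cre. It fell by 0.65 ± 0.19 in the double lesion against Vav Cre (adjusted p = 0.0399).

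Partners of the chain were read from lists chosen by function. Of 50 electron carriers and assembly factors, 9 fell and 0 rose in the double lesion against Vav Cre (median -0.29), where 7.58% of all genes fell and 7.34% rose, and 0 were called in the other comparisons with Vav Cre. Coq7, a hydroxylase of ubiquinone synthesis, was at 25.0, 29.3 and 27.5 CPM in the double lesion and 52.0, 57.6 and 42.6 CPM in Vav Cre and fell by 0.86 ± 0.14 (adjusted p = 0.00503). Etfb, a subunit of the flavoprotein that brings electrons from fatty acid oxidation, was at 267, 295 and 301 CPM in the double lesion and 425, 529.7 and 444 CPM in Vav Cre and fell by 0.69 ± 0.12 (adjusted p = 0.00551). Cyc1 had a difference of -0.31 ± 0.17 (adjusted p = 0.212), and the electron carrier cytochrome c, Cycs, one of -0.49 ± 0.21 (adjusted p = 0.13).

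Of 14 citric acid cycle enzymes 4 fell and 0 rose in the double lesion (median -0.26), against the same 7.58% and 7.34% of all genes. Idh3g, a subunit of NAD-dependent isocitrate dehydrogenase, was at 345, 353 and 341 CPM in the double lesion and 453, 558 and 416 CPM in Vav Cre and fell by 0.45 ± 0.11 (adjusted p = 0.0182). Suclg1, a subunit of succinyl-CoA synthetase, fell by 0.44 ± 0.12 (adjusted p = 0.028).

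A list of 15 transcription regulators held factors of nuclear respiratory genes and also factors that act on mitochondrial DNA, such as Polrmt. Of these 15, 0 fell and 2 rose, with 7 negative values (median 0.07), where 7.58% of all genes fell and 7.34% rose. Myc, a transcription factor known to raise mitochondrial genes, was at 767, 923 and 870.1 CPM in the double lesion and 523, 490.5 and 669.7 CPM in Vav Cre and rose by 0.61 ± 0.14 (adjusted p = 0.0155). Polrmt, the RNA polymerase of mitochondria, was at 48.8, 51.1 and 48.5 CPM in the double lesion and 18.4, 12.8 and 40.6 CPM in Vav Cre and rose by 1.18 ± 0.33 (adjusted p = 0.0324). Nrf1 had a difference of 0.19 ± 0.19 (adjusted p = 0.519), Gabpa of -0.04 ± 0.13 (adjusted p = 0.862) and Yy1 of -0.47 ± 0.15 (adjusted p = 0.0546).

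Some stem cell markers were higher where the members were lower. In the double lesion against Vav Cre, the stem cell transcription factors Meis1, Gata2 and Hlf rose by 0.64 ± 0.16 (adjusted p = 0.0209), 0.67 ± 0.18 (adjusted p = 0.0294) and 0.68 ± 0.19 (adjusted p = 0.0354). Meis1 was at 341, 288 and 324 CPM in the double lesion and 237, 162 and 215 CPM in Vav Cre, where Vav Cre 2 was the lowest library. The erythroid carbonic anhydrase Car1 was at 183, 343 and 449 CPM in the double lesion and 248, 1423 and 498 CPM in Vav Cre and was not called (-0.88 ± 0.48, adjusted p = 0.228). Of the 9 neutrophil markers 3 rose, of the 6 tested B cell markers 1 rose, and of the 5 megakaryocyte markers 1 fell, Pf4 (-1.04 ± 0.32, adjusted p = 0.0426), where 7.34% of all genes rose and 7.58% fell. None of the 7 monocyte and macrophage markers or the 4 tested T and NK cell markers was called. Their part in the members' lower values was not tested.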

How the data were processed

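RNA was measured in 12 libraries, made from 10 to 20 ng of total RNA with a template-switching kit and tagmentation, per the labels' protocols. Reads were aligned to mm10 with TopHat2 2.0.10, counted with HTSeq 0.6.0 and scaled with edgeR 3.8.6, per the submitters' processing notes; whether counting used strand is not given there. The deposited signal values are read counts divided by a size factor by the authors, called CPM here. Of these values, 100% gave back whole reads within 1e-06 reads. No listed gene had under 10 reads in total over the 12 libraries. Intervals and floors cover counting error only.

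The test was limma 3.58.1 on log2(CPM + 1) (R 4.3.3; empirical Bayes with trend; 4 group means, no covariate) for 13046 genes above 1 CPM in at least 3 libraries. The test had been planned for normalized CPM and was kept. Fold changes on this scale understate those of low genes. Benjamini-Hochberg adjustment covered all tested genes, and a gene was called at an adjusted p under 0.05. Alternatives used edgeR 4.0.16 and DESeq2 1.42.0 on the recovered reads, other scalings, filters, covariates and left-out libraries; the limma step was also checked on simulated data. Gene coordinates and transcript lengths are from GENCODE M21 (GRCm38), matched for all 80 members; exons of 29 members overlap another gene, so their reads may be shared. Ratios were compared by exact permutation tests.

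Members, lists and ratios were chosen with earlier results of these data known. Named were all of complex II, the most and least abundant member of each other complex, those with the smallest p in the double lesion, KDM6B OE and interaction comparisons, subunit isoforms, and untested members. Values of some single genes are not reported here.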

Additional observations from a re-analysis of the deposited data

How the results depend on the processing

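In the double lesion against Vav Cre, 53 members and 989 of 13046 genes were called lower. A fit of those 6 libraries alone called 6 members, and sex as a covariate gave 35. edgeR called 50 members (932 genes lower) and DESeq2 65 (1469 genes lower). Equal totals gave 48 members (763 genes), median-of-ratios scaling 54 (1041), upper-quartile scaling 43 (753) and array weights 55 (1153). Without 1 library the count ran from 1 to 68 and the median from -0.68 to -0.38. For the fit with 68, the count over all genes is not given here. With double lesion 1 and Vav Cre 2 both left out, an alternative chosen after seeing the data, 0 members were called and the median was -0.31. With the trend on length and GC content removed the median was -0.33. Members called in KDM6B OE against Vav Cre numbered 15 with DESeq2, 7 with array weights, 1 with sex as a covariate and 0 to 30 without 1 library. For the fit with sex as a covariate, the count over all genes is not given here. The median was -0.19 with the length and GC trend removed and -0.51 to -0.22 without 1 library. In the other comparisons 0 members were called in every alternative that was run. The medians without 1 library ran from -0.41 to -0.13 in Tet2 KO against Vav Cre, from -0.24 to -0.10 and -0.35 to -0.16 in the double lesion against KDM6B OE and Tet2 KO, and from -0.05 to 0.24 in the interaction. The causes of these shifts were not tested. The smaller fits also had fewer libraries.

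Replicate numbers were not taken to pair the libraries: same-numbered libraries had correlations of their deviations from -0.149 to 0.388, with 10 of 18 over 0.1. The 6 pairs of libraries numbered 1 had 0.158 to 0.388, and all 4 of these libraries correlated best with their own number, as did 6 of 12 libraries in all. With the number as a replicate block, 66 members (1324 of 13046 genes lower) were called in the double lesion against Vav Cre and 7 (97 genes lower) in KDM6B OE against Vav Cre, and 0 in the other comparisons.

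Genes near 0 changed sign. Sdha was at 0.0592 with equal totals and 0.0200 with upper-quartile scaling, and at -0.0535 to 0.000976 without 1 library. Cox4i2 was at 0.0414 and 0.0137 with those scalings, 0.0668 with array weights, 0.13 with the length and GC trend removed, 0.0253 with sex as a covariate, 0.26 with both libraries left out and -0.12 to 0.15 without 1 library; it gave no value with a filter above 5 CPM. Atp5s was at -0.0407 with array weights and at -0.0191 to 0.176 without 1 library. The interaction uses all 4 groups, so it has no fit of fewer. Depth limits Cox7a1 and Cox4i2 most, the members with the fewest reads.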
